A study of Mus musculus with 48 samples.

Results

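The genes of the hypoxia response and of glycolysis were followed in 4 sorted cell types of the mouse neurovascular unit after ischemic stroke. The 36 genes, of 24973 in the deposited table, were taken by symbol. They cover 15 glycolytic enzymes, the glycolytic regulator *Pfkfb3*, 4 genes for the fate of pyruvate, 3 subunits of the hypoxia-inducible factors (HIF), 2 HIF hydroxylases, 8 genes regarded as HIF targets, and 3 collagen hydroxylases. Of the 58 genes that the table assigns to the KEGG glycolysis pathway 17 are among them, as are 15 of the 101 genes of HIF-1 signaling. One enzyme, *Aldoa*, has a further gene model in the table, and the model with the higher level was used.

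Male adult wild type (WT) mice underwent transient middle cerebral artery occlusion (tMCAO), with 1 h of occlusion and 23 h of reperfusion. Microglia were sorted as CD11b-positive cells with low CD45, astrocytes by high ACSA2, and endothelial cells and pericytes from what carried neither CD45 nor ACSA2, each from the ipsilateral (ischemic) and the contralateral hemisphere of the same animals, so the control tissue also came from mice with a stroke. Each of the 6 replicates per cell type and hemisphere pooled 3 to 4 mice, giving 48 bulk RNA-seq libraries in 8 groups. The study sorted the 4 cell types together from the same pooled tissue, so libraries of different cell types also share mice. Values are normalized read counts made by the authors, and 1 read was worth between 0.67 and 2.37 of them as estimated from the spacing of low values.

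Before any result, 3 facts about the libraries need stating. The sample titles and the column names give opposite cell types for 12 libraries, the ipsilateral pericytes and ipsilateral microglia, and the column names were used. With these, each of 16 cell type markers was higher in every library of its own cell type than in every library of the other cell types. Among the ipsilateral microglia, replicate 2 had the highest sum of normalized counts of all libraries (16942165, against a median of 11610395) and replicate 3 the lowest estimated number of reads (4900000, against a median of 11800000). The 4 microglial markers, none of them at 0 throughout, summed to between 532 and 28388 normalized counts in the endothelial, pericyte and astrocyte libraries of replicates 1 to 4 and to between 192 and 801 in those of replicates 5 and 6.

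HIF is a pair of an oxygen-regulated alpha subunit, HIF-1 alpha (*Hif1a*) or HIF-2 alpha (*Epas1*), with the stable beta subunit *Arnt*. In oxygenated cells prolyl hydroxylases such as *Egln1* and *Egln3* mark the alpha subunit for destruction, and when oxygen falls the pair accumulates, binds the core sequence ACGTG or GCGTG, and raises the transcription of genes for glucose uptake, glycolysis, lactate export and vascular tone. Because the alpha subunits are controlled mostly as proteins, their mRNA does not report their activity. In the brain, astrocytes are known for a strongly glycolytic metabolism and endothelial cells for high *Epas1*.

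Promoter sequence from RefSeq (GRCm38.p6) was at hand for 31 of the 36 genes, the others being *Plod2*, *Epas1*, *Bhlhe40*, *Stc1* and *Ndrg1*. In the 250 bases before the start of transcription, ACGTG on either strand (on the reverse strand, CACGT) was found in 14 of the 31 genes (45.2%), against 16.6% of 27025 genes with a promoter in the table. GCGTG (reverse, CACGC) was found in 16 (51.6%), against 28.2% of the same genes. A match is a run of letters and not a proven site. The genes were picked for a part in the hypoxia response or glycolysis, and the background promoters were not matched to theirs. The shares are therefore a description and not a test. Among the glycolytic genes with higher levels in ischemic microglia, *Ldha*, *Pgk1* and *Pgam1* held ACGTG on either strand. *Aldoa*, *Tpi1*, *Gapdh*, *Eno1* and *Pkm*, also higher there, held it on neither strand. Of these, *Gapdh* and *Eno1* held GCGTG on either strand. *Aldoa*, *Tpi1* and *Pkm* did not, but an annotated exon covered 193, 138 and 208 of their 250 bases, so a missing match says little. *Hk2*, *Pfkm* and *Pfkfb3*, whose levels in microglia were not called changed below, held ACGTG on either strand too. The 160 bases before the start are shown for the 3 higher genes that held ACGTG, which had no annotated exon in that window. All 3 lie on the plus strand, are written 5′ to 3′, and carry ACGTG or CACGT in capitals (overlapping matches merge to CACGTG).
*Ldha* promoter, chr7:46845644-46845803: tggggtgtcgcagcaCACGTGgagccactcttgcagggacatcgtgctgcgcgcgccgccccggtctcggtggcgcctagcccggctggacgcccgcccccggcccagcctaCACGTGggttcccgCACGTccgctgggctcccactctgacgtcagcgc
*Pgk1* promoter, chrX:106186940-106187099: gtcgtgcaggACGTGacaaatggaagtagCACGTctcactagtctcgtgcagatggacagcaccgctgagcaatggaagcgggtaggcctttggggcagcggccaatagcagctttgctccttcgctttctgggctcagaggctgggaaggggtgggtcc
*Pgam1* promoter, chr19:41911711-41911870: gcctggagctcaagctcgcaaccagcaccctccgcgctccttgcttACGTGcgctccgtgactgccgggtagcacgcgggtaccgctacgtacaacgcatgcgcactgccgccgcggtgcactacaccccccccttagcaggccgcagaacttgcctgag
The *Ldha* window held ACGTG or CACGT in 3 places, the *Pgk1* window in 2 and the *Pgam1* window in 1. The *Pgam1* window also held CACGC, the reverse of GCGTG, which is not in capitals.

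Levels in the contralateral hemisphere were compared first, in a joint limma fit of all 48 libraries, which took them as independent. A difference of at least 1.5-fold was called where the p adjusted by Benjamini-Hochberg was 0.05 or less. In 13 of the 36 genes (background, 35.8% of all genes tested) a single cell type lay above the other 3, namely 5 in astrocytes (background 14.4%), 4 in endothelial cells (5.5%), 4 in microglia (9.68%) and 0 in pericytes (6.28%). The number of genes called between a pair of cell types ran from 13 (pericytes against astrocytes, background 45.4%) to 25 (astrocytes against microglia, background 50.7%). Between these came 19 for endothelial cells against pericytes (background 34.6%), 22 against astrocytes (49.1%) and 23 against microglia (41.6%), and 24 for pericytes against microglia (48%).

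Astrocytes stood apart by *Aldoc*, the brain form of aldolase. Its contralateral astrocyte libraries ranged from 77734 to 204660 normalized counts (median 123010), whereas no contralateral library of another cell type exceeded 2458. The next highest cell type was microglia, 7.52 lower on the log2 scale (adjusted p = 8.8e-07). Muscle-type phosphofructokinase, *Pfkm*, ranged from 3121 to 10222 in astrocytes and lay above pericytes by 2.74 (adjusted p = 4.4e-11). *Ldhb*, the lactate dehydrogenase form that favours lactate use, ranged from 9198 to 20065 in astrocytes and from 5302 to 7162 in microglia, a log2 difference of 1.08 (adjusted p = 0.0209). *Pgk1* and *Eno1* were also highest in astrocytes, by 0.62 and 0.98 over pericytes. The 5 oligodendrocyte markers summed to 31766 to 291292 (median 168443) in contralateral astrocyte libraries and to at most 28467 in those of the other cell types. The 4 astrocyte markers summed to 57129 to 114614 in the same astrocyte libraries. The part of oligodendrocyte RNA in these levels and in the family shares below was not tested.

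Microglia had the highest levels of *Hk2*, *Pfkfb3*, *Slc16a3* and *Pdk1*. The inducible hexokinase *Hk2* ranged from 1858 to 3254 normalized counts in contralateral microglia (median 2190) and did not exceed 301 in any contralateral library of the other cell types. Microglial *Pfkfb3*, which makes the activator of phosphofructokinase, ranged from 3438 to 6419, 2.28 above astrocytes on the log2 scale. The lactate exporter *Slc16a3* ranged from 588 to 1153 in microglia and lay 2.82 above pericytes. *Pdk1*, which restrains the oxidation of pyruvate in the mitochondria, lay 1.48 above pericytes.

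The HIF targets *Bnip3*, *Ankrd37*, *Adm* and *Stc1* were highest in endothelial cells. *Bnip3*, a mitophagy receptor, had a mean of 867 ± 283 (SD, n = 6) in contralateral endothelial cells and lay 0.96 above astrocytes on the log2 scale. Adrenomedullin (*Adm*), a dilator peptide, had a mean of 1050 ± 802 (SD, n = 6) in contralateral endothelial cells, 3.12 above astrocytes on the log2 scale. Replicate 2 held 2667 and the others 576 to 923. The secreted glycoprotein *Stc1* had a mean of 471 ± 143, against 49.3 ± 48.4 in pericytes, where 2 libraries were at 0, so that the fitted log2 difference (4.75) depends on the 1 added to each value. *Ankrd37* lay 3.06 above pericytes, with contralateral endothelial replicate 2 at 1711 and the others at 230 to 344. That library also stood apart for *Hk1*, at 222 against 1530 to 2112. *Epas1* ranged from 20590 to 33732 in endothelial cells and from 6010 to 28067 in pericytes, which did not pass the test against each other (log2 difference 0.88). In astrocytes *Epas1* ranged from 1487 to 2537 and in microglia from 58 to 582, each step down being called (2.80 and 2.67). *Hif1a* had contralateral means between 1088 and 1608 in the 4 cell types, and no pair of neighbours in that order was called.

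Per kilobase of exon, levels can be set against each other within a family. *Hk2* made up 87.9% ± 4.28 (SD, n = 6) of the hexokinase pair in contralateral microglia and 15% ± 25.5 or less in the other cell types, whereas *Hk1* made up the rest. *Aldoc* made up 85.9% ± 1.88 of the aldolase pair in astrocytes and 10.8% ± 7.01 in microglia. Among the phosphofructokinases *Pfkm* held 74.0% ± 8.06 in astrocytes, while *Pfkl* held 81.5% ± 4.27 in microglia and 60.7% ± 13.3 in endothelial cells. Of the alpha subunit pair *Epas1* held 94.6% ± 1.69 in endothelial cells and 88.5% ± 6.69 in pericytes, but 64.9% ± 4.02 in astrocytes and 20.7% ± 10.8 in microglia. The alpha subunit pair thus ran from almost all *Epas1* to mostly *Hif1a* across the cell types. Exon lengths came from GENCODE M21, and reads that mapped to several places were left out upstream, so genes with many processed pseudogenes (*Gapdh*, *Pgk1*, *Ldha*, *Eno1*, *Pkm*, *Tpi1*, *Pgam1* and *Aldoa*) may be understated.

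**Figure D1:**
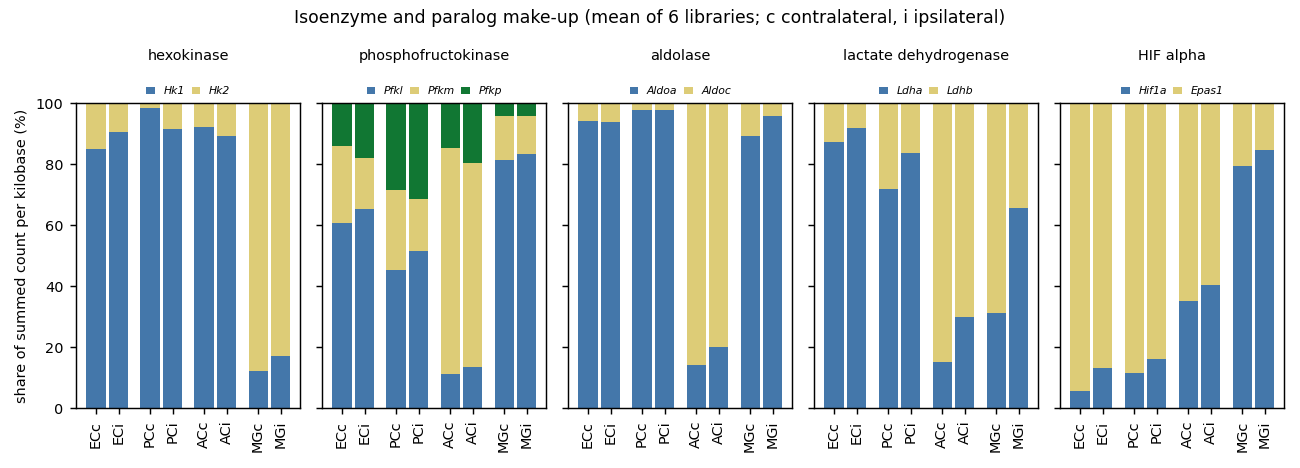
Share of each isoenzyme or paralog in its family, as percent of the summed normalized count per kilobase of exon (y axis, mean of 6 libraries), by cell type (EC, endothelial; PC, pericyte; AC, astrocyte; MG, microglial) for the contralateral (c) and ipsilateral (i) hemisphere. *Hk2* fills most of the microglial hexokinase bars, *Aldoc* and *Pfkm* most of the astrocyte bars, and *Ldha* rises from 31.1% to 65.5% of the lactate dehydrogenase pair in microglia.

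The ipsilateral hemisphere was then compared with the contralateral hemisphere of the same cell type. The fit used limma on the log2 of the normalized count plus 1, over all genes with a mean of at least 10. A call needed an adjusted p of 0.05 or less, a change of at least 1.5-fold, and a value above 10 in every replicate of either hemisphere. Of the 36 genes 14 were called in at least 1 cell type, 4 of them (*Gapdh*, *Pgk1*, *Stc1* and *Bhlhe40*) in more than 1, and 22 in none. The counts were 13 of 35 tested in microglia (10 higher and 3 lower, background 10.6%), 3 of 36 in endothelial cells (all higher, background 0.491%, of which 0.362% higher), 2 of 36 in pericytes (both higher, background 1.02%, of which 0.441% higher) and 0 of 36 in astrocytes (background 0.341%). In astrocytes 6 genes had an unadjusted p under 0.05, against 16 in endothelial cells, 11 in pericytes and 17 in microglia. Pairs below are the libraries of both hemispheres with the same replicate number, whose tie to 1 pool of mice the sources used here do not state. The median log2 change of the genes was 0.26 in endothelial cells and 0.32 in microglia, beside −0.03 and −0.18 over all genes tested. It was 0.00 in pericytes and 0.01 in astrocytes, beside −0.04 and −0.06. As these are bulk samples, a higher value in more cells of one kind cannot be told from more RNA per cell.

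**Figure D2:**
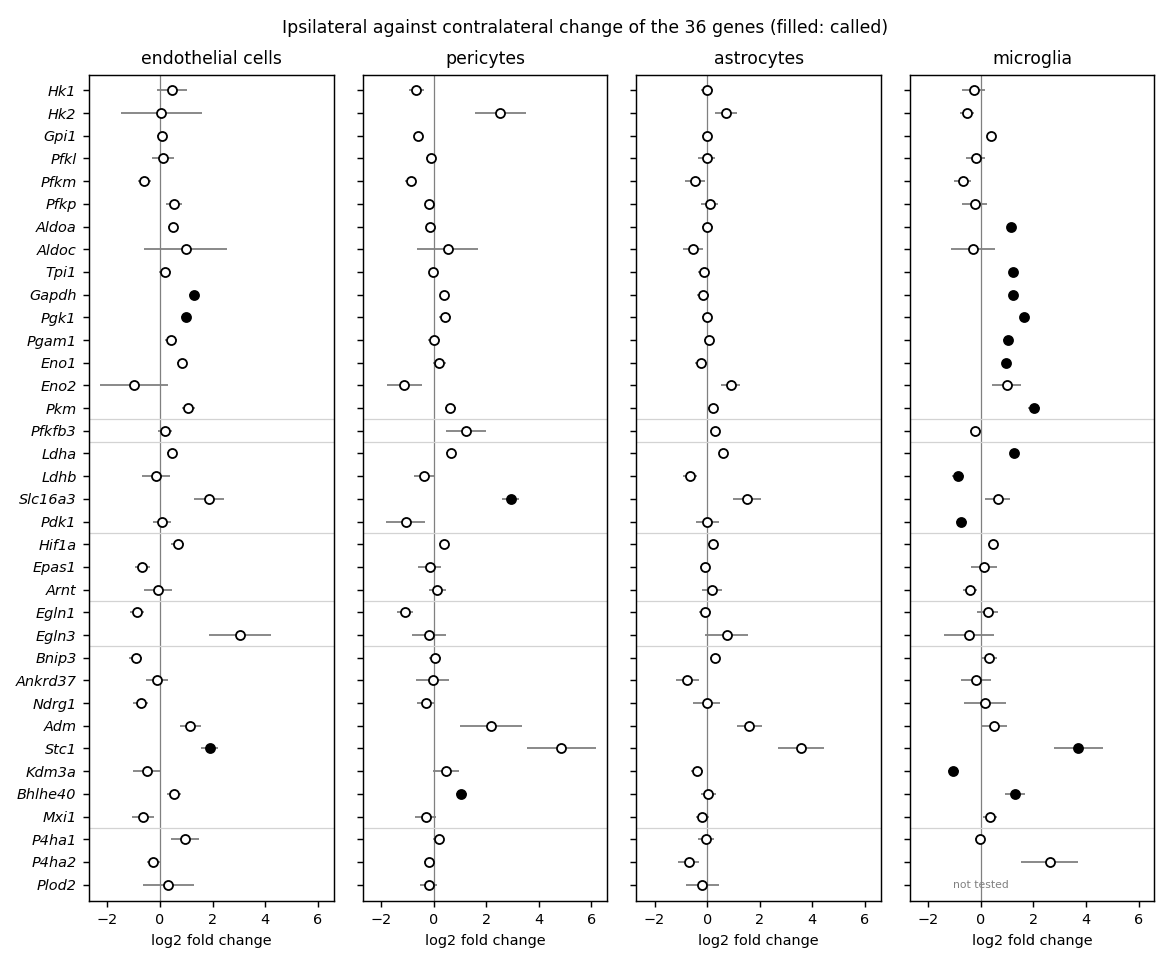
Log2 fold change, ipsilateral over contralateral (x axis, points with standard errors from limma), of the 36 genes (y axis, grouped by role with grey lines between roles) in each of 4 cell types. Filled points were called, and they gather in microglia from *Aldoa* to *Ldha*.

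Microglia showed the broadest change, along the later steps of glycolysis. From aldolase to lactate dehydrogenase A, 8 of 10 genes rose, with a median log2 change of 1.19 over the 10. *Ldhb*, the other lactate dehydrogenase gene, was not counted among the 10 and was called lower (below). At hexokinase, phosphoglucose isomerase and phosphofructokinase, *Pfkfb3* included, 0 of 7 were called and the median was −0.23. Across all genes tested in microglia 4.29% were called higher and 6.27% lower. Hemispheres did not overlap in 9 of the 36 genes, each ipsilateral higher (background 3.78%, and 4.78% for ipsilateral lower), and those were the 8 glycolytic genes and *Stc1*.

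Pyruvate kinase, *Pkm*, which yields ATP and pyruvate in the last glycolytic step, showed the largest change of these enzymes. Its contralateral microglia ranged from 4338 to 5127 normalized counts (median 4575) and its ipsilateral microglia from 9035 to 29974 (median 20223). Every ipsilateral library lay above every contralateral one, at a log2 change of 2.02 (standard error 0.24, adjusted p = 0.000173). *Pgk1*, phosphoglycerate kinase, which makes ATP earlier in the pathway, ranged from 402 to 477 (median 430) against 1070 to 2150 (median 1278). That change of 1.66 (standard error 0.18) had the smallest adjusted p of the genes in microglia, 8.3e-05.

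*Ldha*, the lactate dehydrogenase that turns pyruvate to lactate, ranged from 4814 to 6219 (median 5559) in contralateral microglia and from 11125 to 15307 (median 13216) in ipsilateral microglia. It rose 2.39-fold (log2 1.26, standard error 0.14, adjusted p = 8.8e-05) with no overlap. *Gapdh*, often used as a reference gene, ranged from 5537 to 7243 (median 6828) against 14061 to 18094 (median 14794), a 2.33-fold rise (adjusted p = 0.000126). *Tpi1*, *Aldoa*, *Pgam1* and *Eno1* rose by 1.24, 1.16, 1.04 and 0.95 on the log2 scale, with adjusted p between 0.000245 and 0.00323. Contralateral *Eno1* was tight, at 3740 ± 116 (SD, n = 6), and its ipsilateral mean was 7231 ± 411. *Aldoc* and *Eno2* of the same stretch did not pass the test (log2 changes −0.30 and 0.98).

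**Figure D3:**
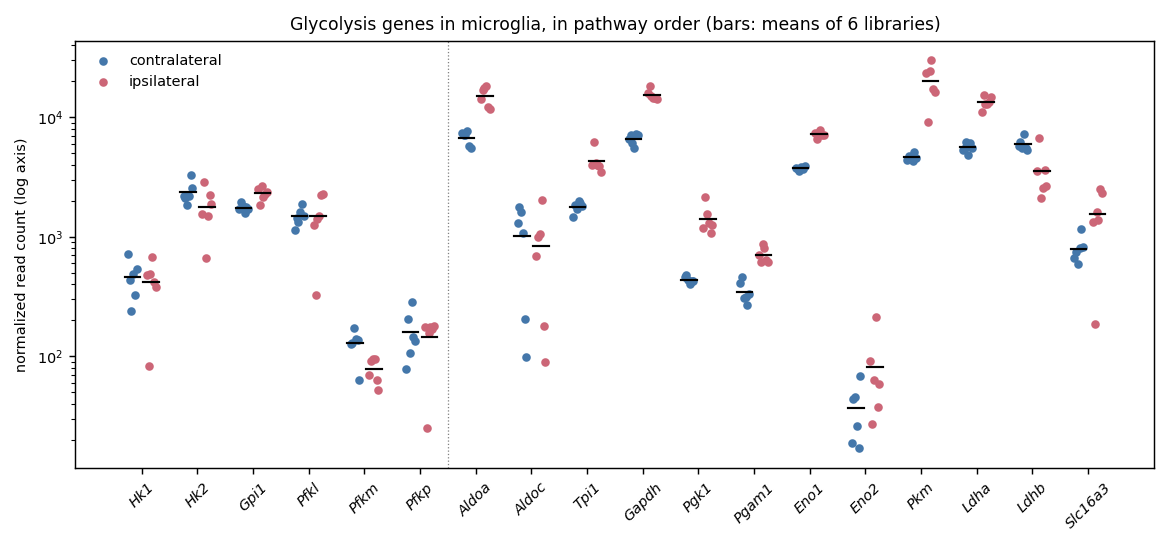
Normalized read counts in microglia (log axis) of glycolysis genes in pathway order (x axis), with 6 contralateral and 6 ipsilateral libraries per gene as points and group means as bars. Left of the dotted line, up to phosphofructokinase, the hemispheres overlap, and right of it those of *Aldoa*, *Tpi1*, *Gapdh*, *Pgk1*, *Pgam1*, *Eno1*, *Pkm* and *Ldha* lie apart.

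The genes that fell in ischemic microglia were *Ldhb*, *Pdk1* and *Kdm3a*. *Ldhb* ranged from 5302 to 7162 (median 5634) in contralateral and from 2116 to 6670 (median 3110) in ipsilateral libraries, a log2 change of −0.85 (standard error 0.23, adjusted p = 0.0303). All but replicate 2 fell, and that library, at 6670, lay within the contralateral range. The 4 astrocyte markers summed to 2851 to 3616 in contralateral and 958 to 1432 in ipsilateral microglia, without overlap. In contralateral astrocytes, where *Ldhb* was highest, they summed to 57129 to 114614. The part of astrocyte RNA in the microglial *Ldhb* values, and in the *Ldha* to *Ldhb* ratio below, was not tested. *Pdk1* ranged from 808 to 1340 against 452 to 880 (log2 −0.74, adjusted p = 0.0285). The histone demethylase *Kdm3a*, a HIF target, ranged from 457 to 997 against 288 to 484 (log2 −1.04, adjusted p = 0.00756). *Pdk1* and *Kdm3a* were lower in 6 of 6 pairs with slightly overlapping hemispheres. *Ldhb* was no longer called without replicate 1, 3, 4, 5 or 6 (adjusted p from 0.0626 to 0.133), nor *Pdk1* without replicate 1, 3 or 4 (0.0644 to 0.111), and in the joint fit of all cell types neither these nor *Kdm3a* were called (0.138 to 0.439).

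*Stc1* and the repressor *Bhlhe40* were the HIF targets that rose in microglia, both from low levels. *Stc1* was at 0 in 3 contralateral libraries and at 15, 17 and 27 in the others, whereas the ipsilateral libraries ranged from 29 to 88. Its fitted log2 change of 3.71 (standard error 0.94, adjusted p = 0.0213) depends on the 1 added to each value. *Bhlhe40* ranged from 36 to 153 (median 103) against 123 to 333 (median 240), a log2 change of 1.31 (adjusted p = 0.0442). *Stc1* was not called without replicate 1 or 4 (adjusted p = 0.0834 and 0.0663), nor *Bhlhe40* without replicate 1, 3, 4, 5 or 6 (0.0588 to 0.178). Both genes were far higher in ipsilateral endothelial cells (means 1864 and 5181). The 4 endothelial markers summed to 255 to 1217 in contralateral and 243 to 2305 in ipsilateral microglia. The part of endothelial RNA in the microglial *Stc1* and *Bhlhe40* values was not tested. The remaining targets tested, *Bnip3*, *Ankrd37*, *Ndrg1*, *Adm* and *Mxi1*, had log2 changes with adjusted p between 0.427 and 0.911. Of the collagen hydroxylases *Plod2* was not tested in microglia, where 8 of 12 libraries held 1 or fewer normalized counts, and *P4ha1* had means of 2808 and 2796. *P4ha2* ranged from 0 to 73 against 23 to 263, was higher in 5 of 6 pairs and was called in the joint fit (adjusted p = 0.00856) but not in that of microglia alone (log2 2.63, adjusted p = 0.128).

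In microglia *Slc16a3* passed the test when replicate 2 was left out and not otherwise. Contralateral libraries ranged from 588 to 1153, and 5 ipsilateral libraries from 1339 to 2484, but ipsilateral replicate 2 held 188. With that replicate the log2 change was 0.64 (adjusted p = 0.404), and without it 1.17 (standard error 0.22, adjusted p = 0.00402), which raised the number of genes called in microglia to 14. The same library held the lowest ipsilateral *Pkm* (9035) and the highest *Tpi1* (6221). Without replicate 2 *Pkm* changed by 2.23 and *Tpi1* by 1.14.

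Of the markers of other cells, the sum of those of monocytes was higher in ischemic microglia. The sum of those of neutrophils was higher in replicate 2 alone. Such a sum does not show which of its markers changed, nor that the cells themselves were present. The 5 monocyte markers, none of them at 0 throughout, summed to 256 to 1347 normalized counts in contralateral and 1512 to 4013 in ipsilateral microglia, without overlap. The 7 neutrophil markers summed to 6423 to 8009 in contralateral libraries, where *Ly6g* was at 0 in all 6, and to 4381 to 18776 in ipsilateral libraries, the highest being replicate 2 and the other 5 not exceeding 6878. The 4 microglial markers summed to 180699 to 227678 against 91419 to 163197. The gate took cells with low CD45 and with CD11b, and the part of monocytes or neutrophils in the changes above was not tested.

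Endothelial cells shared 3 of these rises. *Gapdh* ranged from 3132 to 6237 normalized counts (median 4468) in contralateral and from 8605 to 12946 (median 11009) in ipsilateral endothelial cells, with no overlap. The rise was 2.45-fold (log2 1.29, standard error 0.20, adjusted p = 0.0117). *Pgk1* ranged from 441 to 590 (median 490) against 789 to 1354 (median 1018), a log2 change of 0.99 (standard error 0.20, adjusted p = 0.0398). *Stc1* ranged from 252 to 664 (median 478) against 1088 to 3402 (median 1282). Its log2 change was 1.89 (standard error 0.33, adjusted p = 0.0211). All 3 genes were higher in 6 of 6 pairs. With 5 replicates the calls were lost for *Gapdh* without replicate 1, 3, 4 or 6 (adjusted p from 0.0533 to 0.129), for *Stc1* without 1, 4, 5 or 6 (0.0557 to 0.129) and for *Pgk1* without 1, 3, 4, 5 or 6 (0.104 to 0.196), while the log2 changes stayed between 0.87 and 2.12.

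Endothelial hemispheres lay fully apart in 7 genes, 6 of them ipsilateral higher (*Gapdh*, *Pgk1*, *Stc1*, *Aldoa*, *Eno1* and *Pkm*, background 1.13%) and 1 lower (*Egln1*, background 0.929%). *Eno1* ranged from 2395 to 3250 against 3894 to 6808 and *Pkm* from 3239 to 8067 against 8561 to 16888, yet neither passed the adjustment (adjusted p = 0.0545 and 0.0853). In the joint fit of all cell types both were called (adjusted p = 0.0197 and 0.0061), as was *Bnip3* (lower, 0.0178), while *Stc1* was not (0.414). The hydroxylase *Egln1* ranged from 270 to 710 in contralateral and from 214 to 268 in ipsilateral endothelial cells (log2 −0.88, adjusted p = 0.183). *Egln3*, itself a HIF target, was at 0 in 4 contralateral endothelial libraries and at 1 and 2 in the others, while 4 ipsilateral libraries held 19, 34, 37 and 71 and 2 held 0. Its contralateral level is at the limit of detection, so no fold is given, and the gene was not called. *Bnip3* and *Ndrg1*, both HIF targets, had lower ipsilateral means (867 ± 283 against 448 ± 95.6, and 7954 ± 2730 against 4670 ± 1345) but were not called (adjusted p = 0.132 and 0.299). Over the 8 HIF targets the endothelial median log2 change was −0.31, in a range from −0.92 to 1.89.

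The endothelial values of replicates 5 and 6, with little microglial RNA, can be read on their own. In these replicates the microglial markers summed to 192 and 366 in the contralateral and 276 and 316 in the ipsilateral libraries. *Gapdh* was 3132 and 3804 against 8605 and 11355, *Pgk1* was 478 and 503 against 800 and 917, and *Stc1* was 252 and 567 against 3402 and 2902. Over all 6 replicates, microglial RNA scaled by its markers came to 8.08% of the mean ipsilateral endothelial *Gapdh*, 7.99% of *Pgk1* and 0.195% of *Stc1*. These shares are rough, since for ipsilateral endothelial *Hk2* the same estimate came to 103%, more than was measured. Neutrophil markers summed to 6 to 1726 in contralateral endothelial cells, where *Cxcr2* was at 0 throughout, and to 94 to 10401 in ipsilateral ones (30 and 6 against 94 and 270 in replicates 5 and 6), and their part was not tested. In replicates 1 to 4 alone none of the 36 genes was called in endothelial cells (*Gapdh*, adjusted p = 0.205).

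In pericytes the gene with the smallest adjusted p was *Slc16a3*. This gene, which encodes a monocarboxylate transporter that carries lactate out of glycolytic cells, ranged from 58 to 228 normalized counts (median 108) in contralateral and from 506 to 1070 (median 882) in ipsilateral pericytes. The hemispheres were separated by a wide gap, at a 7.63-fold difference (log2 2.93, standard error 0.31, adjusted p = 0.00236). No other of the 36 genes was higher without overlap in pericytes (background 0.838%), and *Gpi1* alone was lower without overlap (5852 to 6267 against 3130 to 5090, background 1.09%, adjusted p = 0.0668). Replicates 5 and 6 of *Slc16a3* held 122 and 115 against 862 and 866, and the microglial markers there summed to 249 and 575 against 267 and 277. Over the 6 replicates microglial RNA scaled by its markers came to 18.2% of the ipsilateral level, and to as much as 369 normalized counts in a library. The same estimate came to 177% of ipsilateral pericyte *Hk2*, more than was measured, so such shares are rough. The *Slc16a3* call held without any one replicate, the log2 change staying between 2.82 and 3.12. In endothelial cells and astrocytes *Slc16a3* was higher in 5 of 6 pairs, with log2 changes of 1.86 and 1.52, but was not called (adjusted p = 0.17 and 0.389). In endothelial cells replicate 1 went the other way, from 169 to 62, and without it the gene was called (log2 2.52, adjusted p = 0.0335), as it was in the joint fit (adjusted p = 0.0441). Its change in pericytes was not called different from that in another cell type.

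*Bhlhe40* was the other gene called in pericytes, ranging from 1402 to 3433 (median 2114) against 3214 to 6412 (median 4668) with a slight overlap (log2 1.06, standard error 0.22, adjusted p = 0.0391). Replicates 5 and 6 held 2007 and 1402 against 6412 and 3214. The call was lost without replicate 1, 3, 4, 5 or 6 (adjusted p from 0.0713 to 0.161). *Ldha* ranged from 8416 to 12919 in contralateral and from 12827 to 23625 in ipsilateral pericytes, a slight overlap, was higher in 6 of 6 pairs and was not called (log2 0.65, adjusted p = 0.0999). *Pfkm* was lower in 6 of 6 pairs, with means of 780 ± 176 and 424 ± 94.1, and was not called either (log2 −0.87, adjusted p = 0.0772). *Stc1* had the largest fitted change in pericytes (log2 4.86, standard error 1.32), from 0 to 129 against 55 to 2131, and was not called (adjusted p = 0.0982), though the joint fit called it (0.00451). Neutrophil markers summed to 0 to 1615 in contralateral pericytes, where *Ly6g* was at 0 throughout, and to 44 to 13757 in ipsilateral pericytes (47 and 1 against 50 and 155 in replicates 5 and 6), and their part in these changes was not tested.

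**Figure D4:**
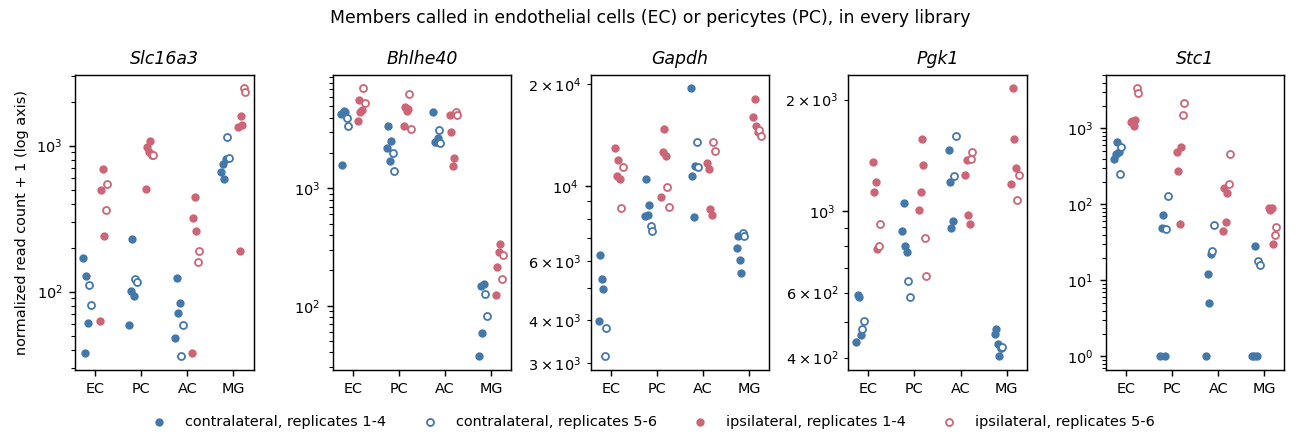
Normalized read count + 1 (log axis) of the 5 genes called in endothelial cells (EC) or pericytes (PC), shown also for astrocytes (AC) and microglia (MG), with each library as a point, filled for replicates 1 to 4 and open for replicates 5 and 6. Ipsilateral *Slc16a3* in pericytes lies between 506 and 1070, above all contralateral pericyte libraries, in open and filled points alike.

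In astrocytes none of the 10 genes from aldolase to *Ldha* was called by limma (0 of 10), with a median log2 change of 0.01, and *Gapdh*, *Pgk1* and *Pkm* had log2 changes of −0.15, 0.01 and 0.21. The last of the 10, *Ldha*, ranged from 3632 to 5689 (median 4460.0) in contralateral and from 5094 to 8482 (median 7353) in ipsilateral astrocytes and was higher in 5 of 6 pairs. It was not called in the fit of astrocytes alone (log2 0.62, standard error 0.18, adjusted p = 0.245) but was in the joint fit of all cell types (adjusted p = 0.0289). The hemispheres overlapped in all 36 genes (background of genes apart, 0.655% higher and 0.242% lower). *Stc1* ranged from 0 to 52 (median 16) against 43 to 461 (median 151) and was higher in 6 of 6 pairs without being called (log2 3.58, adjusted p = 0.148). *Adm* ranged from 38 to 248 (median 116) against 161 to 526 (median 354), also higher in 6 of 6 pairs and not called (log2 1.61, adjusted p = 0.244). Neutrophil markers in astrocytes summed to 36 to 1484 in contralateral and 246 to 5466 in ipsilateral libraries (36 and 98 against 246 and 426 in replicates 5 and 6), and the 5 monocyte markers to 4 to 1017 and 214 to 2175. The 5 oligodendrocyte markers summed to 31766 to 291292 in contralateral and 61083 to 359179 in ipsilateral libraries. The part of these cells was not tested.

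Whether the changes differed between cell types was tested directly. Compared with astrocytes, the microglial change was larger for *Pkm* (astrocyte minus microglia −1.81), *Pgk1* (−1.65), *Tpi1* (−1.38), *Gapdh* (−1.37) and *Aldoa* (−1.15), which is 5 of 36 genes (background 0.293%, adjusted p between 0.000584 and 0.00587). Compared with pericytes, it was larger for *Pkm* (pericyte minus microglia −1.38), *Aldoa* (−1.28), *Tpi1* (−1.25) and *Pgk1* (−1.22). *Gpi1* (−0.97) also differed, but its changes ran in opposite directions, −0.58 in pericytes and 0.39 in microglia, neither of them called. With it these were again 5 of 36 genes (background 0.727%, limma adjusted p between 0.00255 and 0.0226). *Gapdh* changed more in endothelial cells than in astrocytes, by 1.44 (1 of 36, background 0.06%, adjusted p = 0.000791). Between endothelial cells and microglia (background 0.273%), endothelial cells and pericytes (0.0267%), and pericytes and astrocytes (0.00667%) 0 of 36 were called, so the endothelial rises were not shown to differ from the microglial ones. In the same limma fit 10, 8 and 4 genes of these 3 pairs had an unadjusted p under 0.05. Without replicate 3 the number of genes with any such difference was 3, against 6 with all replicates.

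The balance within a family was followed by the log2 ratio of 2 genes in each library, which does not depend on how libraries were scaled. Of 25 ratios with enough counts, 6 had an unadjusted exact permutation p under 0.05 (two-sided, 6 against 6 libraries, smallest possible p 0.00216) and 2 an adjusted p of at most 0.05. The *Ldha* to *Ldhb* ratio in microglia went from −0.08 ± 0.27 (SD, n = 6) to 2.03 ± 0.55, a shift toward the lactate-forming gene in 6 of 6 pairs without overlap (exact p = 0.00216, adjusted p = 0.0271). Per kilobase, *Ldha* made up 31.1% ± 3.91 of the pair in contralateral and 65.5% ± 8.58 in ipsilateral microglia. In astrocytes the ratio went from −1.46 ± 0.41 to −0.19 ± 0.64, also in 6 of 6 pairs (exact p = 0.00649, adjusted p = 0.0541). Pericytes shifted by 1.00 and endothelial cells by 0.62 in 5 of 6 pairs each, and neither passed the adjustment (exact tests, adjusted p = 0.153 and 0.407).

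The *Epas1* to *Hif1a* ratio fell in endothelial cells, from 4.10 ± 0.50 to 2.75 ± 0.61, in 6 of 6 pairs without overlap (exact p = 0.00216, adjusted p = 0.0271). *Epas1* ranged from 20590 to 33732 against 8343 to 26176 and was lower in 6 of 6 pairs, and *Hif1a* ranged from 764 to 1813 against 1391 to 2754 and was higher in 6 of 6 pairs, although neither was called alone (adjusted p = 0.349 and 0.279). The ratio changed by −0.54, −0.32 and −0.33 in pericytes, astrocytes and microglia, which did not pass the test. Without replicate 2, 3, 4, 5 or 6 none of the 25 ratios had an adjusted exact p of at most 0.05, and without replicate 1 there were 4.

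**Figure D5:**
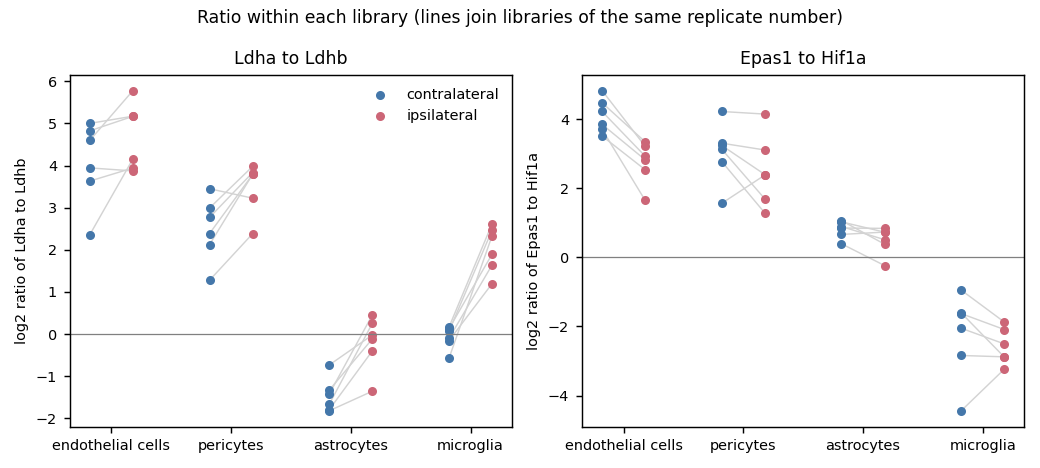
Log2 ratio of the normalized counts of *Ldha* to *Ldhb* (left) and *Epas1* to *Hif1a* (right) in every library (y axis), by cell type (x axis) and hemisphere (color), with lines joining libraries of the same replicate number. In microglia all 6 lines of the left panel rise, from −0.57 to 0.17 up to 1.2 to 2.62, and in endothelial cells all 6 lines of the right panel fall.

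A further list of glycolysis and hypoxia genes was counted in the same fits, 56 of its 58 genes being in the table. Called were 1 of 45 tested in endothelial cells (higher, background 0.491%, of which 0.362% higher) and 2 of 49 in pericytes (both higher, background 1.02%, of which 0.441% higher). In astrocytes 1 of 48 was called (higher, background 0.341% in either direction), and in microglia 8 of 46. Of the 8 microglial genes 5 were higher (background 4.29%) and 3 lower (background 6.27%). *Hmox1*, heme oxygenase, rose in endothelial cells (log2 3.11, adjusted p = 0.00341), astrocytes (3.49, adjusted p = 5.1e-05) and microglia (1.78, adjusted p = 0.000831). *Hilpda*, a lipid droplet protein and HIF target, rose in pericytes (1.62, adjusted p = 0.0171) and in microglia (1.84, adjusted p = 0.00203). In microglia, where the few genes called are all named after their values were seen, *Mif* (1.62), *Angptl4* (1.35) and *Tfrc* (1.03) were higher, and *Hif3a* (−4.25), *Ddit4* (−2.52) and *Pfkfb4* (−1.33) were lower. In endothelial cells the next smallest adjusted p were those of *Pgf* (2.22, 0.0803) and *Slc16a1* (−0.84, 0.156), in pericytes that of *Pdk2* (−0.80, 0.114), and in astrocytes that of *Ero1l* (1.09, 0.136), none of them called. *Hif3a*, an inhibitory HIF subunit, went from 126 ± 27.3 to 12.5 ± 13.9 normalized counts, and *Ddit4*, a stress-induced brake on mTOR that HIF can raise, from 299 ± 132 to 64.5 ± 47.9.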

How the data were processed

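RNA from sorted cells was sequenced after SMART-Seq amplification, 6 pools of 3 to 4 mice per cell type and hemisphere. Per the labels and the methods of the study, reads were checked with FastQC, trimmed with Trimmomatic 0.38, aligned to GRCm38 with STAR 2.6.1d and counted per gene with featureCounts 1.6.3, which left out reads with several alignments. The deposited values are DESeq2 1.18.1 normalized counts that the authors rounded to whole numbers, treated here as a score and not as raw counts, so no count test was run. The estimated reads per library ranged from 4900000 to 17100000, with a median of 11800000. The smaller a library, the coarser its low values.

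Values were taken as log2(value + 1) and tested with limma 3.58.1 (limma-trend, R 4.3.3) per cell type over 12 libraries, with Benjamini-Hochberg adjustment over all genes with a mean of at least 10. Levels and differences of change between cell types came from 1 fit of all 48 libraries. That fit took the libraries as independent, although the cell types were sorted from the same pools. Ratios were tested by exact permutation (two-sided) in Python 3.11.15 with scipy 1.17.1. The tests were tested on simulated data. The hemispheres of each pool were taken from the same mice, but no source used here ties the replicate numbers of both hemispheres to a pool, so the reported fits had no block. The alternatives were other pseudocounts, filters, scalings and call rules, the replicate block, the joint fit, the cell types of the titles, replicates 1 to 4 alone and leaving out each replicate.

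Full statistics were given for genes called in at least 1 cell type. The members and lists were chosen with earlier results of these data known. Microglial RNA in another library was estimated from that library's summed microglial markers, as a share of those in microglia, times the level of the gene in microglia of the same hemisphere. This estimate can exceed what was measured, as for *Hk2* in pericytes (162% of the contralateral and 177% of the ipsilateral level). Exon lengths were those of GENCODE M21. Promoters were those of RefSeq (GRCm38.p6). One gene of the further list is not reported here by name.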

Additional observations from a re-analysis of the deposited data

Results flagged for a closer look

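Among 36 groups of 6 libraries examined, 3 held a library far from its neighbours by Dixon's test, where chance gives about 1 in 20. In ipsilateral microglia replicate 2 stood apart with *Tpi1* at 6221 normalized counts (the others 3481 to 4170) and *Ldhb* at 6670 (2116 to 3609). In ipsilateral pericytes replicate 1 held *Slc16a3* at 506, against 862 to 1070 in the others, and still lay above all contralateral pericytes.

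The change with ischemia differed between cell types in 11 tests of 6 genes by limma interaction terms. Written as the change in astrocytes minus that in microglia, the log2 differences were −1.15 for *Aldoa*, −1.37 for *Gapdh*, −1.65 for *Pgk1*, −1.81 for *Pkm* and −1.38 for *Tpi1*. As pericytes minus microglia they were −1.28 for *Aldoa*, −0.97 for *Gpi1*, −1.22 for *Pgk1*, −1.38 for *Pkm* and −1.25 for *Tpi1*. As endothelial cells minus astrocytes the difference was 1.44 for *Gapdh*. Standard errors lay between 0.21 and 0.32.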

How the results depend on the processing

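The number of genes called in endothelial cells (3) became 1 with the replicate block, 6 when all libraries were fitted jointly and 0 in replicates 1 to 4 alone, and ranged from 0 to 3 with a replicate left out. In pericytes (2) it became 1 with no filter on low values, 4 with the block, 5 in the joint fit and 1 in replicates 1 to 4 alone, and ranged from 1 to 2 with a replicate left out. In astrocytes (0) it became 2 with the block and 1 in the joint fit, and stayed at 0 with any replicate left out. In microglia (13) it lay between 11 and 13 under the other settings and between 9 and 14 with a replicate left out. With the cell types of the titles in place of the column names it was 21 in pericytes and 26 in microglia, since pericytes and microglia are then compared with each other. The cause of the other shifts was not tested.

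Of the genes that differed in level, 13 became 10 to 14. Those that differed in change (6) ranged from 3 to 6 with a replicate left out and were 8 with the block. Of the ratios, 2 became 0 under the sign-flip test of the replicate block and 0 to 4 with a replicate left out.

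For the 18 calls of single genes, 239 of 287 alternative values were still called, 48 were not and 0 reversed. The 8 glycolytic genes in microglia and *Slc16a3* in pericytes were called under every setting other than the titles' cell types. DESeq2 was not run, since the values are not raw counts. Depth limits genes near 0, such as *Egln3* and *Stc1*, where a single read is up to 2.37 normalized counts.

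The sources do not state that equal replicate numbers of both hemispheres mark 1 pool of mice. Deviations from the group means correlated at 0.01 to 0.55 between same-numbered libraries of endothelial cells (mean 0.23), at −0.07 to 0.42 in pericytes (0.23), at 0.02 to 0.66 in astrocytes (0.38) and at −0.03 to 0.35 in microglia (0.14), and 6, 7, 9 and 5 of 12 libraries correlated best with their own number. With the replicate block *Pgk1* and *Stc1* were not called in endothelial cells (adjusted p = 0.0789 and 0.0594). The block added *Ldha* (0.0344) and *Pfkm* (lower, 0.0455) in pericytes and *Stc1* (0.00414) and *Adm* (0.0355) in astrocytes. In the further list it added *Slc16a1* (0.0217) and *Ero1l* (0.0114) in astrocytes and *Ero1l* (0.0455) in microglia, all by limma. The sign-flip test over 6 pairs cannot give a p below 0.0312. In the joint fit *Eno1*, *Pkm*, *Slc16a3* and *Bnip3* were gained and *Stc1* lost in endothelial cells. It also gained *Ldha*, *Egln1* and *Stc1* in pericytes, *Ldha* in astrocytes and *P4ha2* in microglia, and lost *Ldhb*, *Pdk1* and *Kdm3a* in microglia.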
